A study of Mus musculus with 18 samples.

Results

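Gene counts of Thy1+ cells sorted from hearts of KK/HlJ mice were compared with those of C57BL/6 mice over 3 arms at once: saline pumps (sham), and isoproterenol (ISO), a drug that stimulates beta-adrenergic receptors, at day 14 or at day 21 after pump implantation. The libraries were chosen by strain and treatment in their titles, which gave 6 KK/HlJ and 6 C57BL/6 libraries, 12 of the 18 in the series. The 6 others are C3H/HeJ and are given only beside the result. Each of the 6 groups of strain and arm holds 2 libraries, and the sham labels carry no day. The labels write the sorted cells as Thy1+ and HE-negative without explaining HE, and give no age or sex. The labels do not say whether the 2 libraries of a group came from separate animals or from pools. The p-values therefore rest on library-to-library spread, part or all of which may be technical. The question asked of the counts was which genes differed between the strains in sham and ISO hearts alike.

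Thy1 is a surface glycoprotein used to sort cardiac fibroblasts, the matrix-producing cells of the heart. KK/HlJ is an inbred strain known for glucose intolerance and obesity, and C57BL/6 is the strain from which the mouse reference genome was built. Inbred strains differ at fixed alleles, so some genes are read at different levels in every tissue and under every treatment. Processed pseudogenes are copies of spliced mRNAs pasted back into the genome. A short read from a highly expressed gene can match such a copy as well as its source, and a strain's variant can decide which of the 2 places it is assigned to. Each gene was therefore marked by the share of 50-base words, the length of a read, that its transcripts share with another gene. Genes with at least 10% of such words are called copy-prone below and are reported as uncertain.

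Of 14955 genes tested, edgeR's quasi-likelihood test called 43 at an adjusted p under 0.05, which is 0.288% of those tested. Of these, 27 were higher in KK/HlJ (0.181%) and 16 were lower (0.107%). The 6 KK/HlJ libraries did not overlap the 6 C57BL/6 libraries for 41 of the 43 (0.274% of genes tested), a separation seen in 0.802% of all genes tested. All 43 differed by at least 2-fold in the fit, and 26 by at least 4-fold (19 higher, 7 lower). At an unadjusted p under 0.05 there were 772 genes. By annotation, 24 of the called genes are protein-coding and not copy-prone, 12 in each direction. Of the 486 pseudogenes tested 12 were called, all 12 higher in KK/HlJ. Those with almost no counts in C57BL/6 could pass the filter on low counts only through KK/HlJ, so their direction was fixed. Of the 2836 copy-prone genes tested 17 were called, or 0.599%, against 0.215% of the others.

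Because so many calls involve copies, aligned stretches are shown for 4 of the pseudogenes with the coding gene each one most resembles, read from the GENCODE M21 transcripts on mm10. Gm15920 was chosen after its values were seen. Each stretch is 60 bases of the coding part, and capitals mark the bases at which the pair differ.
Gapdh: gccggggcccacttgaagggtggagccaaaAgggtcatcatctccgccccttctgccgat
Gm13394: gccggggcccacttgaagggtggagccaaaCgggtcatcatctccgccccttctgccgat
Rps26: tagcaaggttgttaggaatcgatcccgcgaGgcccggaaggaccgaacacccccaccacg
Rps26-ps1: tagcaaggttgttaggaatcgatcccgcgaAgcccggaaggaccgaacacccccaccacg
Ndufa12: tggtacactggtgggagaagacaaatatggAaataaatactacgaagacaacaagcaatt
Gm15920: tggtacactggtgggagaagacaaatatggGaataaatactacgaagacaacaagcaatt
Rps2: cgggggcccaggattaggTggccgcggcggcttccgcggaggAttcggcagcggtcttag
Rps2-ps13: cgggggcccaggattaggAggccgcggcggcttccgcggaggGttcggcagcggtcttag
Positions count from 1 at the 5′ end of the pseudogene's transcript, with the coding gene's base first. The differences in these windows are A346C for Gm13394 (chr2:28934235-28934294, minus strand), G287A for Rps26-ps1 (chr8:107439264-107439323, minus strand), A99G for Gm15920 (chr5:130188463-130188522, plus strand), and T60A and A84G for Rps2-ps13 (chrX:52898629-52898688, plus strand). Over the full alignments Gm13394 and Gapdh differ at 1 of 1000 bases, Rps26-ps1 and Rps26 at 4 of 429, Gm15920 and Ndufa12 at 2 of 402, and Rps2-ps13 and Rps2 at 7 of 882.

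The 12 libraries held 7230741 to 25356498 counts. Levels below are counts per 1000000 (CPM), scaled by edgeR's effective library sizes. The marker sums in this paragraph are scaled by total counts instead. The 4 libraries that correlated least with the 11 others over genes were all KK/HlJ, with a median r of 0.79 (ISO day 14 replicate 1), 0.822 (ISO day 21 replicate 1), 0.839 (sham replicate 1) and 0.846 (sham replicate 2). The 22 defining markers of cardiac fibroblasts summed to 108100 to 149200 CPM in C57BL/6 and 104200 to 132900 CPM in KK/HlJ, with none at 0 and none called. Gsn alone averaged 72220 CPM in C57BL/6 and 70540 CPM in KK/HlJ by effective library sizes, so that sum mostly follows Gsn. Markers of other cells were low and overlapped between the strains. The 20 markers of pericytes and smooth muscle summed to 1803 to 8643 CPM in C57BL/6 and 2658 to 4028 CPM in KK/HlJ, the 22 macrophage and monocyte markers from 10.1 to 45.9 CPM and 18.3 to 156.7 CPM, and the 24 T and NK lymphocyte markers, 10 of them at 0 in every library, from 0 to 14.5 CPM and 1.13 to 7.65 CPM. The 156.7 CPM of macrophage and monocyte markers came from KK/HlJ ISO day 14 replicate 1, and the 5 other KK/HlJ libraries had 35.9 CPM or less. Erythrocyte and platelet markers stood at 268.3 CPM in that library, at 41.9 CPM or less in the other KK/HlJ libraries and at 52.3 CPM or less in C57BL/6. In these bulk samples fewer cells of a type and less RNA per cell cannot be told apart.

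Among genes with few or no shared words, 2 interferon-inducible genes had counts in KK/HlJ and C3H/HeJ libraries and none in C57BL/6. Ifi202b, an HIN-200 family protein that binds DNA (chromosome 1, 173962568 to 173982744), had 0 counts in all 6 C57BL/6 libraries and 13.1, 30.0 and 63.9 CPM as the lowest, median and highest of the KK/HlJ libraries. Gbp2b, a guanylate-binding protein of the response to intracellular microbes (chromosome 3, 142594847 to 142619179), also had 0 counts in all 6 C57BL/6 libraries and 12.9, 25.1 and 54.0 CPM in KK/HlJ. Against a floor of 3 counts per library, Ifi202b was at least 177.5-fold higher and Gbp2b at least 147.8-fold higher in KK/HlJ. The edgeR adjusted p was 2.9e-06 for Ifi202b and 9.68e-06 for Gbp2b, and each was called in sham, at day 14 and at day 21 separately. With 0 counts in C57BL/6, both could pass the filter on low counts only through KK/HlJ. Their direction was therefore fixed, and the calls add no support for it. Ifi202b shares no 50-base word with another gene, and Gbp2b shares 1.84% of its words, with Gbp2.

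Those 2 genes stood apart from the rest of their list. Of 59 interferon-stimulated and guanylate-binding genes 54 were tested, of which 2 were called higher and 0 lower in KK/HlJ. The list does not hold Ifi207, an HIN-200 family gene that was called lower in KK/HlJ and is described below. The list's median log2 fold change was −0.75, beside −0.06 over all genes tested, and 24.1% of its members had a positive sign beside 44.6% of all genes. At an unadjusted p under 0.05, 13 members were lower and only Ifi202b and Gbp2b higher. Over all 14955 genes tested, 772 passed that threshold in both directions together. Irgm1, an immunity-related GTPase, averaged 100.4 ± 39.3 CPM in C57BL/6 and 39.1 ± 15.6 CPM in KK/HlJ (SD, n = 6) at an edgeR adjusted p of 0.0923. The libraries of the strains did not overlap for Gbp2, a paralogue of Gbp2b (122.7 ± 11.5 and 67.9 ± 18.9 CPM), for Iigp1, another immunity-related GTPase (22.7 ± 7.89 and 2.55 ± 2.58 CPM), for Ifi205 (90.4 ± 38.8 and 12.5 ± 14.5 CPM), which is copy-prone, or for the ubiquitin-like protein Isg15 (35.0 ± 9.84 and 13.2 ± 8.25 CPM), at adjusted p values of 0.17 to 0.975. None of these 5 passed the test. Libraries without overlap were seen in 0.802% of all genes tested. The list's median was −0.78 in sham, −0.71 at day 14 and −0.56 at day 21. Without Ifi202b and Gbp2b the members summed to 2191 to 3505 CPM in C57BL/6 and 1535 to 2409 CPM in KK/HlJ, ranges that overlap. The macrophage and lymphocyte markers given above overlapped between the strains as well, and their part in these values was not tested.

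**Figure D1:**
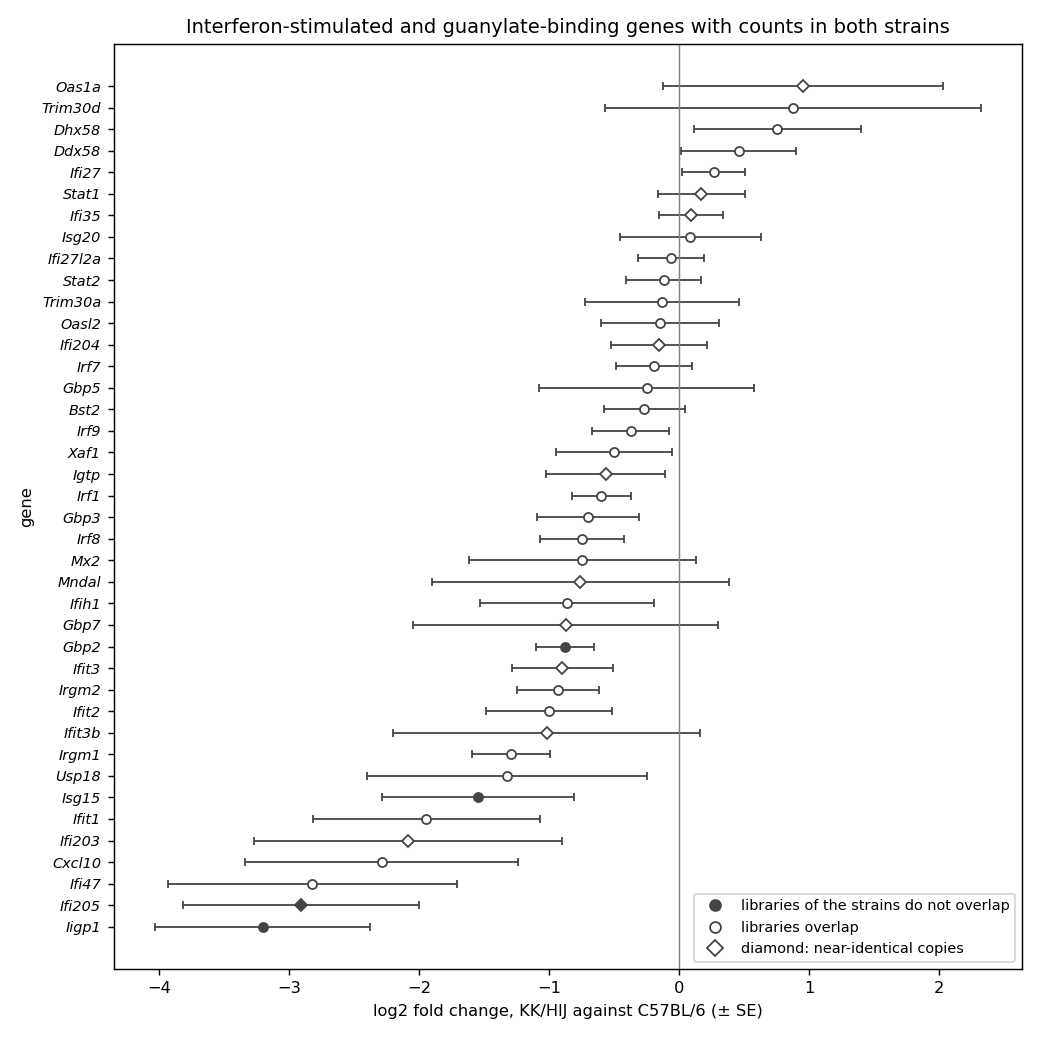
Each point is the log2 fold change of 1 gene of the interferon list between KK/HlJ and C57BL/6 over 12 libraries, with its SE as the bar, for the 40 genes that have counts in both strains and a mean of at least 5 CPM in 1 of them. Of these, 32 lie left of 0 and none passed the test; filled points mark the 4 genes whose libraries do not overlap.

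Further genes higher in KK/HlJ code for enzymes and a mitochondrial carrier. Ucp2, an inner mitochondrial membrane carrier, stood at 7.53, 12.2 and 30.4 CPM (lowest, median, highest) in C57BL/6 and at 71.4, 126.6 and 165.6 CPM in KK/HlJ. Every KK/HlJ library was above every C57BL/6 library, and the fit put the difference at 8.42-fold (log2 fold change 3.07, SE 0.379; edgeR adjusted p = 0.000172). Ada, adenosine deaminase, which converts adenosine to inosine, ran 4.77, 5.41 and 9.47 CPM in C57BL/6 and 12.2, 32.0 and 65.6 CPM in KK/HlJ. The difference was 5.25-fold (2.39, SE 0.394; edgeR adjusted p = 0.00424). Ip6k3, an inositol hexakisphosphate kinase, ran 1.41, 4.39 and 11.8 CPM in C57BL/6 and 16.5, 28.5 and 56.2 CPM in KK/HlJ, again without overlap. It was 6.71-fold higher (2.75, SE 0.488; edgeR adjusted p = 0.00862). The call for Ip6k3 was lost without the 4 least correlated KK/HlJ libraries. That fit held no KK/HlJ sham library, and replicate 2 was the only KK/HlJ library at each ISO day. Here and below, calls lost in it therefore do not bear on a difference held in sham.

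Several secreted and surface proteins were higher as well. Wfdc2, a secreted protein with whey acidic protein domains, ran 1.60, 2.76 and 6.38 CPM in C57BL/6 and 15.2, 31.1 and 164.2 CPM in KK/HlJ. The highest value, KK/HlJ sham replicate 1, lies far above the other 5, and the difference was 12.6-fold (3.66, SE 0.697; edgeR adjusted p = 0.0363). Without that library the log2 fold change of Wfdc2 was 3.02 (adjusted p = 0.00466). The call for Wfdc2 was lost in 7 of the 12 fits that each left out 1 library (largest adjusted p 0.347, without KK/HlJ ISO day 14 replicate 1) and under RLE scaling (0.0506). It stayed called without C57BL/6 sham replicate 2, C57BL/6 ISO day 21 replicate 1, KK/HlJ sham replicate 1 and either KK/HlJ ISO day 21 library.

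Serpina3n, a secreted inhibitor of serine proteases, ran 77.5, 171.2 and 230.8 CPM in C57BL/6 and 279.9, 450.8 and 626.2 CPM in KK/HlJ. It was 2.87-fold higher (1.52, SE 0.214; edgeR adjusted p = 0.00072) and the single call among the 35 tested genes of activated fibroblasts, whose median was 0.09. Sparcl1, a matricellular protein and the most abundant of the called genes, ran 1383, 1586 and 1905 CPM in C57BL/6 and 2544, 3172 and 4679 CPM in KK/HlJ. The difference was 2.19-fold (1.13, SE 0.194; edgeR adjusted p = 0.00579). Steap3, an endosomal ferrireductase, ran 197, 338.2 and 446 CPM in C57BL/6 and 668.2, 795.7 and 1046 CPM in KK/HlJ. No library of one strain reached the other's range, at 2.52-fold (1.33, SE 0.222; edgeR adjusted p = 0.00468). Lbp, which binds bacterial lipopolysaccharide, averaged 138.9 ± 38.0 and 323.8 ± 73.1 CPM, the adhesion molecule Cadm3 154.3 ± 46.2 and 365.0 ± 33.6 CPM, and the surface glycoprotein Mpzl1 77.8 ± 20.9 and 191.2 ± 36.5 CPM (SD, n = 6). These 3 differed without overlap by log2 fold changes of 1.23, 1.25 and 1.32.

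C1s1, the serine protease of the first complement component, was the single call among 26 tested complement genes. It ran 280.8, 330.6 and 419.4 CPM in C57BL/6 and 446.2, 766.9 and 893.9 CPM in KK/HlJ, and it was 2.05-fold higher (1.04, SE 0.209; edgeR adjusted p = 0.032). C1s1 overlaps Gm16567 and shares 35.1% of its words with other genes, 21.8% with its paralogue C1s2, and is uncertain for that reason. The sum of C1s1 and C1s2 passed the test (1.05, edgeR adjusted p = 0.0412). C1s1 made up 99.1% of that sum in C57BL/6 and 98.5% in KK/HlJ, so the sum could hardly differ from C1s1 alone. Its call was lost in 4 of 12 fits with 1 library left out, with a largest adjusted p of 0.0797, namely without replicate 1 of C57BL/6 at day 14 or at day 21, or replicate 2 of KK/HlJ at sham or at day 14. C3, the central complement protein, averaged 4290 ± 1178 CPM in C57BL/6 and 8016 ± 2163 CPM in KK/HlJ (SD, n = 6) and did not pass the test (edgeR adjusted p = 0.139).

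**Figure D2:**
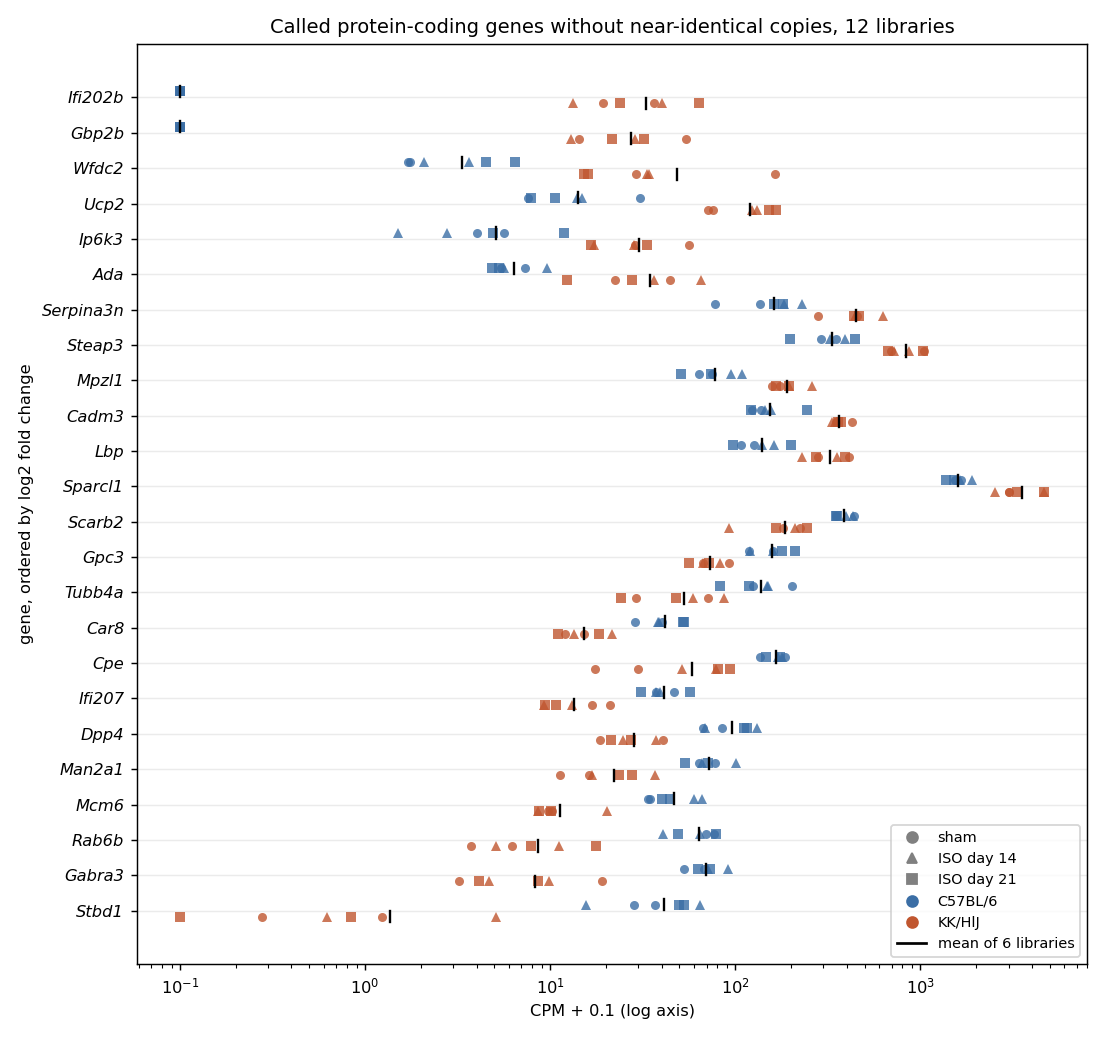
CPM on a log axis, with 0.1 added so that 0 can be drawn, in each of 12 libraries for the 24 called protein-coding genes that are not copy-prone, with marker shape for the arm and a black line for the mean of 6 libraries. The strains separate for every gene except Tubb4a, and Ifi202b and Gbp2b sit at 0 in all C57BL/6 libraries.

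Among the genes lower in KK/HlJ, Stbd1, which binds glycogen at membranes, ran 15.5, 43.2 and 64.3 CPM in C57BL/6 and 0, 0.633 and 5.03 CPM in KK/HlJ. Every KK/HlJ library was below every C57BL/6 library, and the fit gave −5.43 on the log2 scale (SE 0.93; edgeR adjusted p = 0.026). Scarb2, a lysosomal membrane protein whose gene is the next tested neighbour of Stbd1 on chromosome 5, ran 349.1, 374.9 and 439.7 CPM in C57BL/6 and 92.1, 196 and 243.8 CPM in KK/HlJ. It was 2.09-fold lower (−1.06, SE 0.225; edgeR adjusted p = 0.0462). The call for Stbd1 was lost in 8 of 12 fits with 1 library left out (largest adjusted p 0.366, without KK/HlJ ISO day 21 replicate 2) and with voom quality weights (0.102). It remained without C57BL/6 sham replicate 2, C57BL/6 ISO day 14 replicate 1, KK/HlJ ISO day 14 replicate 2 or KK/HlJ ISO day 21 replicate 1. Scarb2 lost its call in 3 such fits, without either C57BL/6 ISO day 14 library or without KK/HlJ ISO day 14 replicate 1 (largest adjusted p 0.0783), and without the 4 least correlated libraries (0.469).

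Gabra3, a subunit of the GABA-A receptor, ran 53.0, 69.6 and 91.0 CPM in C57BL/6 and 3.11, 6.55 and 19.1 CPM in KK/HlJ. It was 8.71-fold lower (−3.12, SE 0.408; edgeR adjusted p = 0.000258). Rab6b, a small GTPase of Golgi trafficking, ran 40.7, 67.3 and 78.9 CPM in C57BL/6 and 3.65, 6.94 and 17.6 CPM in KK/HlJ. The libraries were far apart, at 7.80-fold lower (−2.96, SE 0.376; edgeR adjusted p = 0.000172). Man2a1, the Golgi mannosidase that trims N-glycans, averaged 72.1 ± 15.97 and 21.96 ± 9.28 CPM, Dpp4, a surface peptidase found on fibroblast subsets, 96.3 ± 26.6 and 28.2 ± 8.82 CPM, and Car8, a carbonic anhydrase-related protein, 41.8 ± 9.34 and 15.1 ± 4.02 CPM (SD, n = 6). Man2a1, Dpp4 and Car8 had log2 fold changes of −1.76, −1.76 and −1.45. The Car8 call (edgeR adjusted p = 0.0462) was lost in 10 of 12 fits with 1 library left out (largest adjusted p 0.204) and kept only without replicate 1 of KK/HlJ at sham or at day 14, and was also lost under RLE scaling, without a filter, with the replicate block and with offsets (largest adjusted p 0.619).

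Cpe, carboxypeptidase E, which trims the ends of peptide prohormones, ran 135.9, 172.7 and 185.4 CPM in C57BL/6 and 17.4, 65.0 and 93.3 CPM in KK/HlJ. It was 3.21-fold lower (−1.68, SE 0.291; edgeR adjusted p = 0.00644) and the single call among 41 genes of insulin signalling and glucose handling. The Cpe call was lost without the 3 KK/HlJ replicate 1 libraries or without the 4 least correlated ones (largest adjusted p 0.161). Gpc3, a glypican proteoglycan, ran 118.3, 159.8 and 209.7 CPM in C57BL/6 and 56.0, 69.7 and 92.8 CPM in KK/HlJ. At −1.10 (SE 0.223; edgeR adjusted p = 0.0322) it was the single call among 26 proteoglycan genes. Gpc3 lost its call in 5 of 12 fits with 1 library left out (largest adjusted p 0.0779), namely without C57BL/6 ISO day 14 replicate 1 or any of the 4 ISO day 21 libraries, and under the replicate block and the offsets (largest 0.219). Ifi207, an HIN-200 family gene near Ifi202b, averaged 41.3 ± 9.18 CPM in C57BL/6 and 13.3 ± 4.74 CPM in KK/HlJ. Its log2 fold change was −1.69 (edgeR adjusted p = 0.0166), lost without C57BL/6 ISO day 14 replicate 1 or C57BL/6 ISO day 21 replicate 1 (largest 0.112), under voom and under the offsets.

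Cell cycle genes held 2 calls, both lower in KK/HlJ, among 39 tested. Mcm6, a subunit of the replicative helicase, ran 33.8, 42.2 and 66.0 CPM in C57BL/6 and 8.51, 9.83 and 20.1 CPM in KK/HlJ, or 4.12-fold lower (−2.04, SE 0.308; edgeR adjusted p = 0.00182). Ccnd1, cyclin D1, ran 123.1, 169.2 and 267.2 CPM in C57BL/6 and 17.1, 37.6 and 79.4 CPM in KK/HlJ, or 4.52-fold lower (−2.17, SE 0.325; edgeR adjusted p = 0.00196). Both separated the strains in all libraries. Ccnd1 shares 21.6% of its words with the overlapping gene LTO1, and since the counting's use of strand is not given in the sources used here, reads of the pair cannot be told apart. Over the 39 genes the median was −0.54 beside −0.06 over all genes, and 25.6% had a positive sign. That median was −0.18 without KK/HlJ ISO day 14 replicate 1 and −0.20 among genes with a mean of at least 5 CPM. Mki67, a marker of proliferating cells, averaged 3.14 ± 2.95 CPM in C57BL/6 and 0.432 ± 1.06 CPM in KK/HlJ (SD, n = 6) and did not pass the test (edgeR adjusted p = 0.966).

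None of the 22 defining fibroblast markers was called. Fbln1, a matrix glycoprotein on that list, was without overlap, at 2504 ± 385.6 CPM in C57BL/6 and 4291 ± 547.7 CPM in KK/HlJ (SD, n = 6), and did not pass the test (0.77, SE 0.175; edgeR adjusted p = 0.0764). Thy1, the sorting marker, ran 137.4, 318 and 363.7 CPM in C57BL/6 and 269.7, 370.5 and 486.3 CPM in KK/HlJ. Its log2 fold change was 0.35 (SE 0.221) with overlapping libraries. Pdgfra, a receptor for platelet-derived growth factor carried by fibroblasts, stood between 249 and 773.3 CPM in all 12 libraries (−0.18, SE 0.256), and Tcf21, a fibroblast transcription factor, between 263.1 and 515.9 CPM (−0.06, SE 0.201). Col1a1, a chain of fibrillar collagen I, averaged 3658 ± 1122 and 4919 ± 648 CPM (0.45, SE 0.203), and Postn, a matricellular protein of activated fibroblasts, 988.6 ± 651 and 1200 ± 787 CPM (0.24, SE 0.258). The edgeR adjusted p was 0.966 for Col1a1 and 1 when rounded for the other 4. No gene was called among 11 fibrillar collagens (median −0.01), 30 other collagens (0.04), 28 genes of collagen folding and crosslinking (0.06), 44 of TGF-beta and BMP signalling (−0.19) or 48 of adrenergic and cAMP signalling (−0.03). Among these 5 medians, that of collagen folding and crosslinking was the only one to keep its sign under every alternative run. In all, 8 of 31 pathway lists held a called gene and 0 of 14 marker lists did.

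Several pseudogenes had almost no counts in C57BL/6. Gm13394, the copy of the glycolytic enzyme gene Gapdh, had 4 counts in the 6 C57BL/6 libraries together and 7089 in the 6 KK/HlJ libraries, where it ran 47.6, 83.0 and 179 CPM (edgeR adjusted p = 7.28e-11). Gapdh itself was listed at 0.142 to 5.33 CPM in C57BL/6 and 0.178 to 4.93 CPM in KK/HlJ. In KK/HlJ 97.5% of the pair's summed CPM was thus on the pseudogene, against 1.74% in C57BL/6. The summed pair passed the test (5.58, adjusted p = 0.00224). The 2 Gapdh ranges overlap.

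For ribosomal protein pairs the coding gene was well counted. Rps26-ps1 had 6 counts in C57BL/6 and 8053 in KK/HlJ, at 34.8, 72.5 and 253.4 CPM in KK/HlJ (edgeR adjusted p = 1.04e-06). Rps26 ran 173.4, 249.6 and 391.9 CPM in C57BL/6 but 0.533, 74.5 and 172.1 CPM in KK/HlJ. The KK/HlJ libraries were not alike: sham replicate 1 had 0.533 CPM of Rps26 with 253.4 CPM of the pseudogene and ISO day 14 replicate 2 had 3.19 with 100.4, while the 4 others had 61.7 CPM or more of Rps26. Summed, the pair averaged 273.5 ± 87.1 CPM in C57BL/6 and 168.5 ± 67.5 CPM in KK/HlJ and did not pass the test (−0.65, edgeR adjusted p = 0.978).

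Rps2-ps13 had 1 count in C57BL/6 and 2710 in KK/HlJ, a ratio of 3564 after scaling with an exact 95% counting interval of 639.2 to 140800. The interval covers counting error only. Its coding gene Rps2 ran 154.2 to 283.1 CPM in C57BL/6, and in KK/HlJ it was 0.282 CPM in sham replicate 2 and 0.0997 CPM in ISO day 21 replicate 1 but 87.2 to 200.4 CPM in the 4 others. Those 2 libraries had the highest Rps2-ps13 values, 42.2 and 62.5 CPM. They are not the 2 in which Rps26 was low. The sum of Rps2 and Rps2-ps13 averaged 236.5 ± 46.5 CPM in C57BL/6 and 123.1 ± 71.0 CPM in KK/HlJ (SD, n = 6; edgeR adjusted p = 0.959).

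The remaining pseudogenes were chosen for naming after their values were seen, apart from Eif5al3-ps. Gm8730, a copy of the ribosomal stalk gene Rplp0 with 98.7% identity, ran 0.128 to 0.588 CPM in C57BL/6 and 36.0 to 112.8 CPM in KK/HlJ (edgeR adjusted p = 3.43e-09). Gm15920, the copy of the respiratory complex I gene Ndufa12, ran 0 to 0.180 and 13.03 to 43.5 CPM. Gm1821, a copy of the ubiquitin gene Ubb, ran 0.131 to 0.988 and 8.09 to 64.8 CPM. All 3 lay far outside the C57BL/6 range in every KK/HlJ library. Eif5al3-ps (a copy of the translation factor gene Eif5a) ran 9.68 to 31.5 CPM in KK/HlJ, Gm10704 (Rtraf) 1.05 to 29.8, Gm6166 (the fatty acid-binding protein gene Fabp5) 4.48 to 26.1, and Gm6368 (the chaperone gene Hsp90ab1) 7.25 to 14.5, all with at most 0.925 CPM in any C57BL/6 library. Gm5948, 85.5% identical to Rplp0 where aligned and sharing no word with it, had 0 counts in C57BL/6, 0.0939 CPM in KK/HlJ sham replicate 2 and 14.1 to 24.7 CPM in the 5 other KK/HlJ libraries, at least 78.2-fold higher in the mean. When each pseudogene's counts were added to those of its closest gene, the sums for Rplp0 (with Gm8730 and Gm5948), Ndufa12, Ubb, Eif5a, Rtraf, Fabp5 and Hsp90ab1 had edgeR adjusted p values of 0.507 or more. In KK/HlJ the pseudogene held 0.941% (Gm6368), 3.05% (Gm5948), 3.53% (Eif5al3-ps), 11.3% (Gm8730), 11.4% (Gm1821), 17.3% (Gm10704), 53.6% (Gm15920) and 74.0% (Gm6166) of its pair's CPM. Where that share is small, the sum follows the coding gene and cannot show a change in the pseudogene. The calls for Gm6368 and Gm10704 were lost without the 4 least correlated libraries (adjusted p 0.0572 and 0.324). Gm6166 was no longer called without replicate 1 of C57BL/6 at day 14 or of KK/HlJ at sham (largest 0.0863) or under 4 other settings (largest 0.527).

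**Figure D3:**
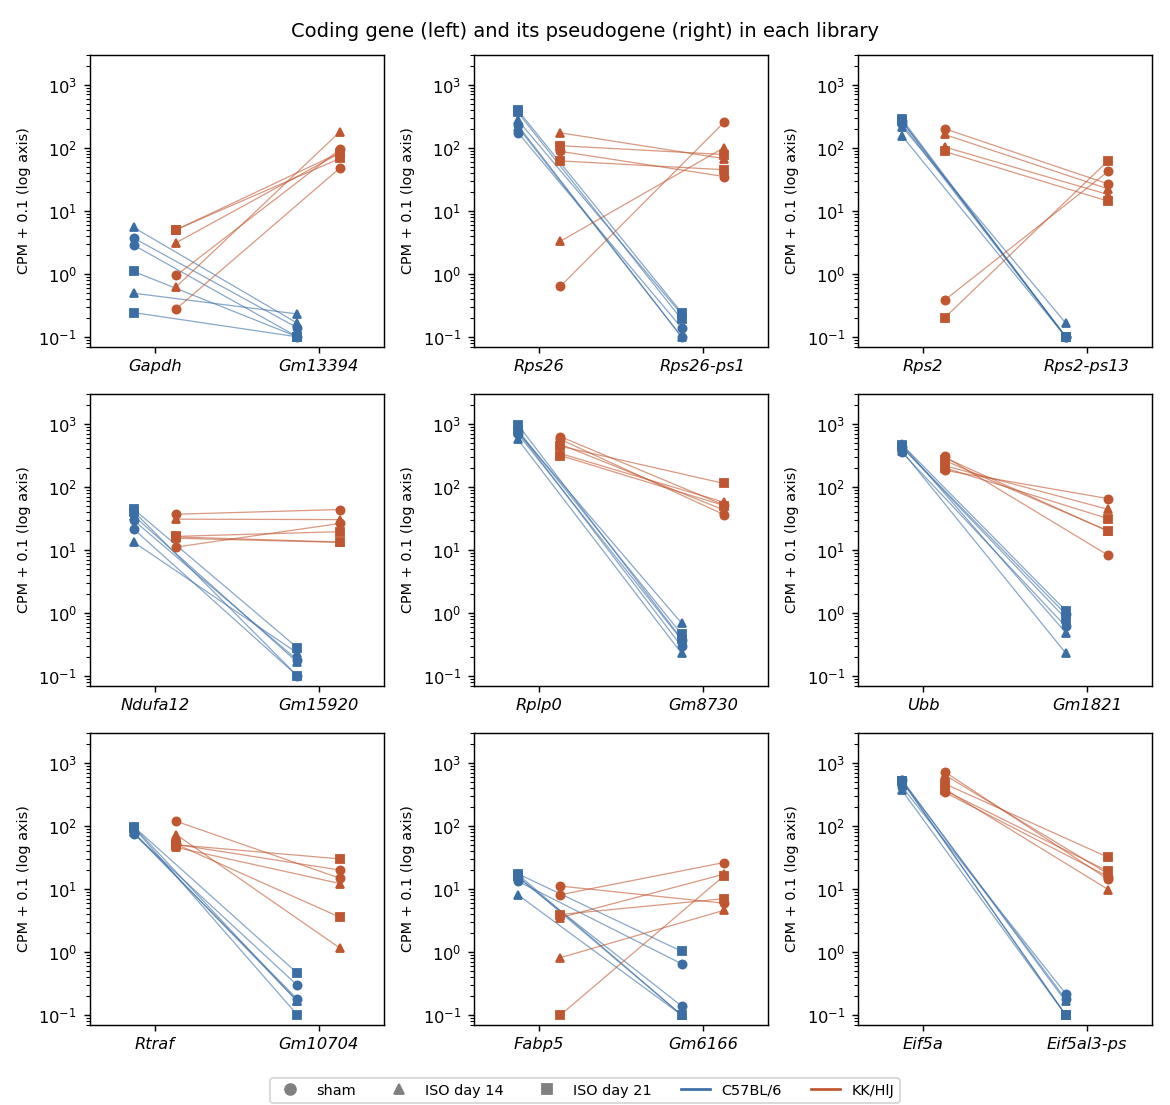
Each line joins a coding gene (left) to its pseudogene (right) in 1 library, as CPM on a log axis with 0.1 added, for 9 pairs; color gives the strain and marker shape the arm. The pseudogenes lie under 1 CPM in all C57BL/6 libraries and mostly above 3 CPM in KK/HlJ, and single KK/HlJ libraries have Rps26 or Rps2 near 0.

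Other uncertain genes include coding ones lower in KK/HlJ. Rpl29, a ribosomal protein gene, had 1210 counts in C57BL/6 (7.54, 10.8 and 15.2 CPM) and 2 in KK/HlJ, both in ISO day 21 replicate 2. The ratio of C57BL/6 to KK/HlJ was 460 with an exact 95% counting interval of 127.1 to 3803 (edgeR adjusted p = 0.00423). The gene could pass the filter on low counts only through C57BL/6, so its direction was fixed. Rpl29 shares 21.2% of its words with Uimc1, which averaged 38.0 CPM in C57BL/6 and 31.8 CPM in KK/HlJ (−0.31). The sum of the pair did not pass the test (−0.68, edgeR adjusted p = 0.978). Rpl29 held 22.5% of that sum in C57BL/6, so the sum mostly follows Uimc1. Rpl3 ran 41.1, 49.4 and 82.4 CPM in C57BL/6 and 2.34, 6.96 and 13.5 CPM in KK/HlJ, or 7.97-fold lower (−3.00, SE 0.352, edgeR adjusted p = 6.42e-05). Summed with Rpl3-ps1 it was still lower (−2.56, edgeR adjusted p = 0.000223). Rpl3 made up most of that sum, 99.5% in C57BL/6 and 72.9% in KK/HlJ. Rpl3 was not called in the fit of all 18 libraries (adjusted p = 0.0644). These were the 2 calls among 83 cytosolic ribosomal protein genes, 67 of which are copy-prone. The median of the cytosolic ribosomal proteins was −0.20, but it came to −0.0019 with offsets for length and GC. Leaving out 1 library at ISO day 21 gave −0.12 (C57BL/6 replicate 1), −0.08 (C57BL/6 replicate 2), −0.11 (KK/HlJ replicate 1) or −0.02 (KK/HlJ replicate 2), and leaving out replicate 1 of KK/HlJ sham gave −0.38. Odc1, which makes the polyamine putrescine, averaged 71.9 ± 27.5 CPM in C57BL/6 and 22.8 ± 9.05 CPM in KK/HlJ (−1.63; adjusted p = 0.0323). Its call was lost without C57BL/6 ISO day 14 replicate 1 (0.0689), and under the replicate block and the stricter filter.

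Hddc3, a phosphohydrolase gene, ran 7.40, 13.6 and 20.8 CPM in C57BL/6 and 31.8, 42.2 and 79.3 CPM in KK/HlJ, or 3.38-fold higher (1.76, SE 0.353; edgeR adjusted p = 0.0316). It overlaps Man2a2 and Gm18310 and shares 66.6% of its words with other genes. The Hddc3 call was lost without C57BL/6 ISO day 21 replicate 1 (0.0563), with the replicate block and without the 4 least correlated libraries (0.0947 at most). BC023719, annotated as antisense and overlapping the class I gene H2-T10, had 0 counts in C57BL/6 and 2.59, 4.17 and 13.5 CPM in KK/HlJ, at least 37.0-fold higher. It could pass the filter on low counts only through KK/HlJ, so its direction was fixed. Antisense and sense reads cannot be told apart here. BC023719 lost its call with the replicate block, with the stricter filter and without the 4 least correlated libraries (largest adjusted p 0.443). The next pair was named after their values were seen. Serpina3h, a pseudogene 93% identical to Serpina3f, ran 0, 0.235 and 3.15 CPM in C57BL/6 and 0.356, 16.4 and 41.3 CPM in KK/HlJ, with overlapping libraries (5.49; adjusted p = 0.0484), a call lost in 4 of 12 fits with 1 library left out (largest 0.383), namely without C57BL/6 ISO day 14 replicate 2, either C57BL/6 ISO day 21 library, or replicate 2 of KK/HlJ sham. Tubb4a, a beta-tubulin, averaged 138.3 ± 40.3 and 53.0 ± 24.2 CPM (SD, n = 6) with overlapping libraries (−1.41; adjusted p = 0.0207).

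All 43 called genes had the same sign in sham, at day 14 and at day 21. They were chosen by the fit over these same libraries. For 41 of them the libraries of the strains did not overlap, which forces 1 sign in every arm. The shared sign is therefore no separate support. Few of the 43 reached the threshold in 1 arm, where 2 libraries meet 2. The within-arm test called 10 genes in sham (0.0669%; 8 higher and 2 lower, 0.0134%), 8 at day 14 (0.0535%) and 7 at day 21 (0.0468%). The 6 genes called in each arm were Ifi202b, Gbp2b, Gm13394, Gm8730, Rps2-ps13 and Rps26-ps1, and 31 of the 43 were called in no single arm. These 6 had few or no counts in C57BL/6, so the filter on low counts fixed their direction. Wfdc2, Cpe, Rab6b and Gm15920 were also called in sham, Gm1821 at day 14, and Ucp2 at both ISO days.

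The size of the strain difference varied over the arms for some genes. For Ucp2 the log2 fold change was 1.96 in sham, 3.15 at day 14 and 4.12 at day 21, with 71.4 and 75.6 CPM in the KK/HlJ sham libraries and 122.5 to 165.6 CPM in the 4 KK/HlJ ISO libraries. For Wfdc2 it was 5.89, 3.60 and 1.53, and for Cpe −2.77, −1.43 and −0.89. The interaction of strain with arm called none of the 14955 genes in edgeR (0%), with 502 at an unadjusted p under 0.05, and its adjusted p was 1 for Ucp2, Wfdc2 and Cpe. DESeq2 called 5 for that interaction, Ralgps1, Uggt2, Chrdl1, Nfatc2ip and H2-Aa, which are named after their values were seen.

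**Figure D4:**
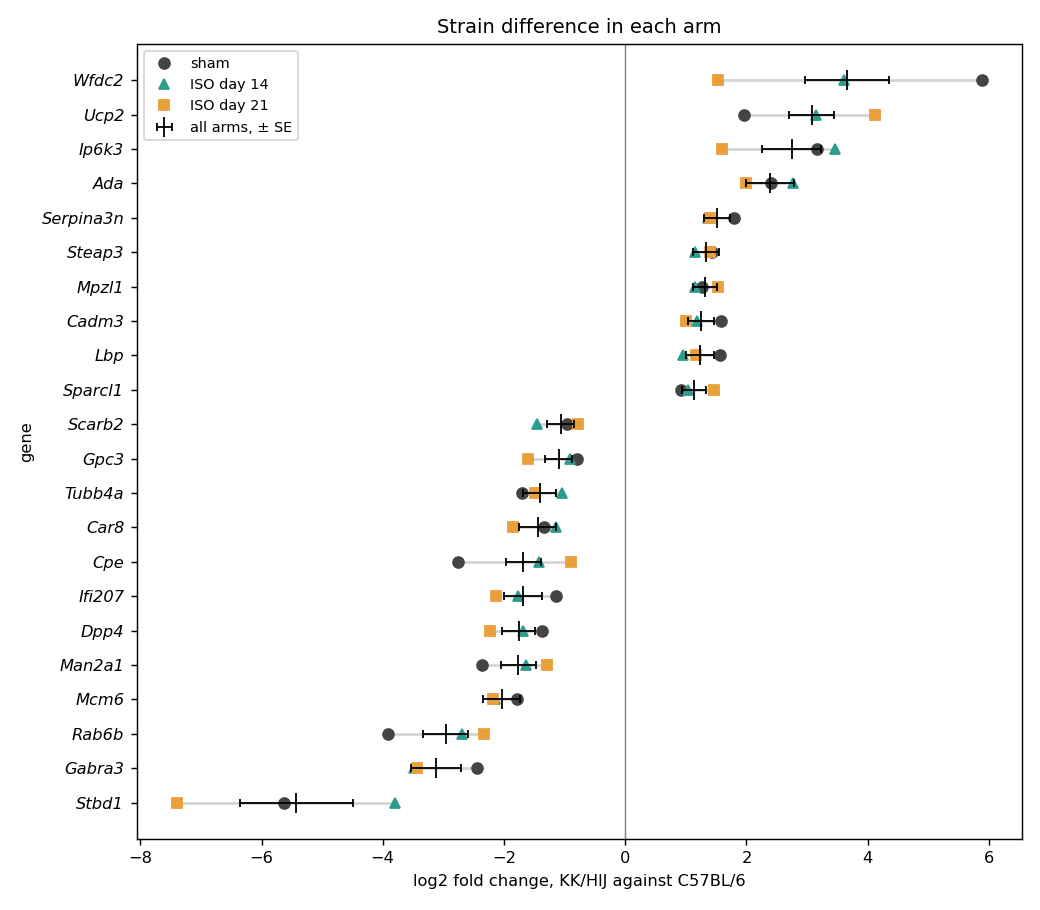
Log2 fold change of KK/HlJ against C57BL/6 in sham, at ISO day 14 and at ISO day 21 (2 against 2 libraries each), with the value over all arms and its SE in black, for the called protein-coding genes that are not copy-prone and have counts in both strains. The 3 arm values lie on the same side of 0 for every gene, as they must where the libraries of the strains do not overlap. They are widest apart for Wfdc2, from 1.53 at day 21 to 5.89 in sham.

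Called genes lay near one another in a few places. Of the 43, 11 had another called gene within 1000000 bases on mm10. The same share for genes drawn from all those tested was not computed, so this count is no measure of clustering. Cadm3, Ifi207 and Ifi202b lie in this order on chromosome 1 between 173333258 and 173982744, the outer 2 higher and the middle one lower in KK/HlJ. Scarb2 and Stbd1, both lower, lie on chromosome 5 between 92441314 and 92606579 with no tested gene between them. Ada and Wfdc2, both higher, lie 812174 bases apart on chromosome 2 with 12 tested genes between them, none of them called. Serpina3h and Serpina3n, both higher, lie in the Serpina3 cluster of chromosome 12, and Gpc3 and Rps2-ps13 on chromosome X changed in opposite directions.

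The 6 C3H/HeJ libraries are set beside these values without a test, since that comparison shares the C57BL/6 libraries. Their CPM were scaled together with all 18 libraries, while those of C57BL/6 and KK/HlJ were scaled over the 12. Small gaps between ranges are therefore uncertain. For several genes C3H/HeJ was read near KK/HlJ: Ifi202b ran 2.74 to 77.6 CPM, Gbp2b 11.9 to 37.7, Steap3 758.2 to 1124, Cadm3 251.9 to 361.4, Gm13394 74.7 to 106.5 and Gm15920 13.1 to 41.5, while Rab6b ran 0.0786 to 10.2 and Car8 6.44 to 26.3. These ranges meet those of KK/HlJ, and they do not meet those of C57BL/6. The gap is small for Cadm3, with a highest C57BL/6 value of 244.8 CPM, and for Car8, with a lowest of 28.6 CPM. For others C3H/HeJ was read near C57BL/6: Wfdc2 ran 2.10 to 3.66 CPM, Ip6k3 0.547 to 5.17, Stbd1 21.2 to 78.8, Gabra3 50.9 to 124, Rps26-ps1 0.0959 to 0.834 and Gm8730 0 to 0.471. None of these 6 ranges meets that of KK/HlJ. Ucp2 in C3H/HeJ, at 11.4 to 40.5 CPM, overlapped C57BL/6 and stayed below KK/HlJ. Sparcl1, at 634.8 to 1363 CPM, and Ada, at 0.0911 to 4.51 CPM, also stayed below KK/HlJ. Their highest C3H/HeJ values were close to the lowest C57BL/6 values, 1383 and 4.77 CPM, so their order against C57BL/6 is uncertain.

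**Figure D5:**
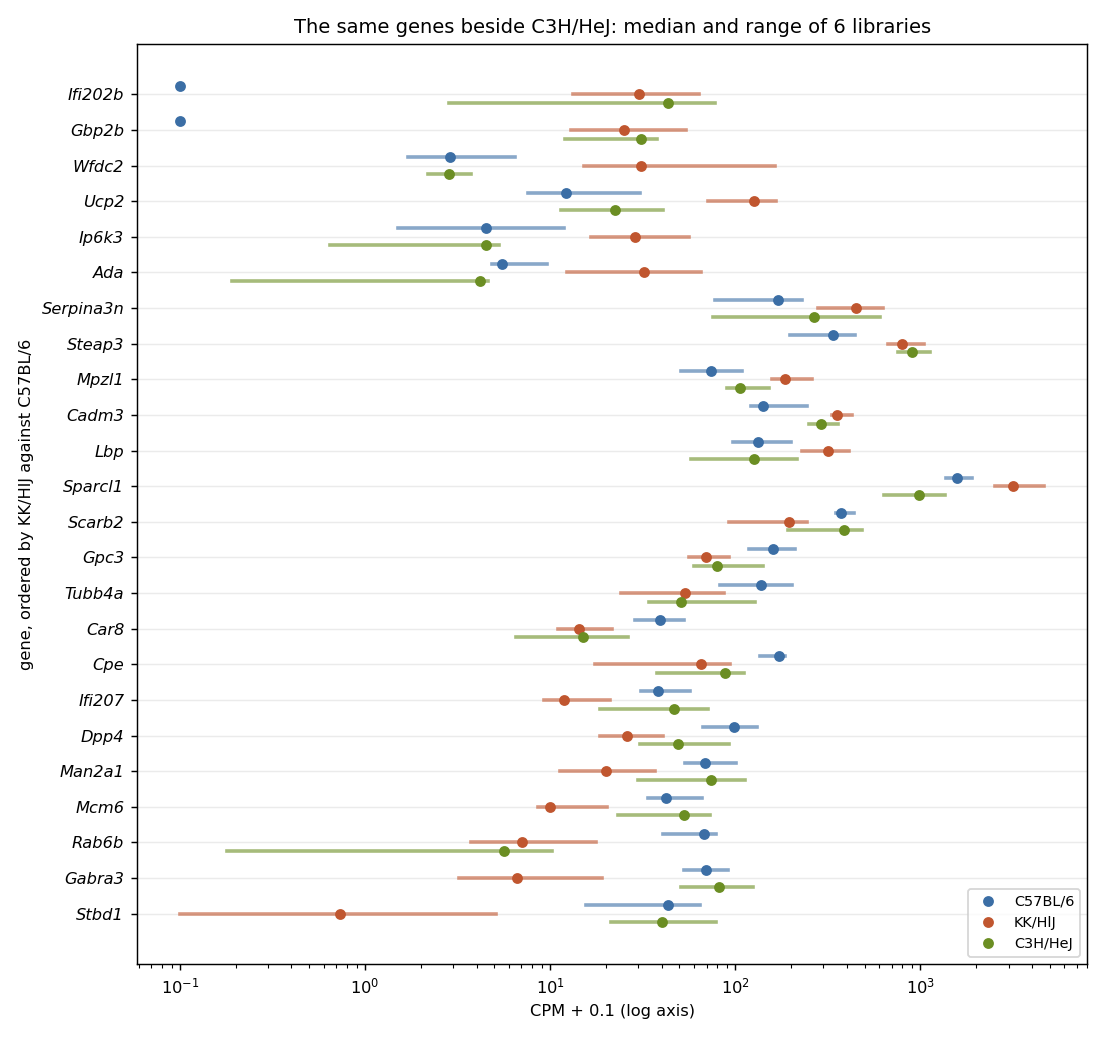
Median (point) and range (bar) of CPM over 6 libraries in C57BL/6, KK/HlJ and C3H/HeJ, on a log axis with 0.1 added, for the 24 called protein-coding genes that are not copy-prone. C3H/HeJ lies beside KK/HlJ for Ifi202b, Gbp2b, Steap3 and Rab6b, and beside C57BL/6 for Wfdc2, Stbd1 and Gabra3.

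Genes known from textbooks to differ between inbred strains gave 1 call among 8 tested, Gbp2b. Nnt, the mitochondrial transhydrogenase deleted in part in some C57BL/6 substrains, ran 17.1, 28.4 and 85.1 CPM in C57BL/6 and 28.2, 80.2 and 95.2 CPM in KK/HlJ. The libraries overlap (0.82, SE 0.454; edgeR adjusted p = 1 when rounded), the labels name no substrain, and 46.8% of its words are shared with a second identifier of the same symbol. Wdfy1 averaged 19.4 ± 20.7 and 45.7 ± 27.4 CPM (SD, n = 6) and Glo1, glyoxalase 1, 48.4 ± 4.56 and 50.4 ± 21.4 CPM, and neither passed the test.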

How the data were processed

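RNA of Thy1+ cells was sequenced in single-end reads of 50 bases from libraries described as stranded, per the labels' protocols. The submitters' processing notes name FastQC, STAR 2.5.3a, edgeR and the mm10 genome, which derives from C57BL/6. For the annotation release, counter and strand setting, nothing is given in the sources used here. Raw read counts per Ensembl gene, with no normalization, are what the authors deposited. Of 53342 identifiers 53237 matched GENCODE M21, and the others held 0.00159% of reads.

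The 12 libraries (7230741 to 25356498 counts) entered edgeR 4.0.16 (R 4.3.3; TMM scaling, default filter on 6 groups, robust quasi-likelihood fit) with terms for arm and strain and 8 residual degrees of freedom. Calls used Benjamini-Hochberg adjusted p under 0.05, taken over all genes tested. Within-arm contrasts and the interaction came from 1 fit of 6 group means. The SE of a log2 fold change derives from the fold and its F statistic. On data simulated for this comparison (13972 genes tested), 16% of 50 genes changed 2-fold, 54% changed 4-fold, 80% changed 8-fold and 86% changed 16-fold were called, with 7 false calls. The changed genes were drawn from those with a mean of at least 5 CPM. No arm effect was simulated, and each gene had the same dispersion in all libraries. The shares do not cover genes with lower counts or libraries of unequal spread. The closest gene was the best match with at least 85% identity over at least 50% of the transcript. Floors are 3 counts per library. Floors and intervals cover counting error only, as PCR copies were not marked.

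Named were up to 12 called genes each way with the largest fold, separate libraries, at least 5 CPM in the higher strain, a proper symbol and few shared words; up to 4 called genes of each list; up to 5 copy-prone genes each way; and Thy1, Pdgfra, Tcf21, Col1a1, Postn, Nnt, Wfdc2, Cpe, Hddc3, Maml2 and Gimap6 whatever they showed. List members that were not called, and genes said to be so, were named after their values were seen. The comparison and the gene lists were chosen with earlier results of these data known. Alternatives were RLE scaling, other filters, the replicate number as a block, DESeq2 1.42.0, limma 3.58.1 voom, offsets for length and GC, all 18 libraries, and libraries left out. Summing with the closest gene and leaving out the 4 least correlated libraries were chosen after seeing the data. The latter leaves no KK/HlJ sham library.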

Additional observations from a re-analysis of the deposited data

Results flagged for a closer look

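For 2 genes reported whatever they showed, both KK/HlJ libraries lay above both C57BL/6 libraries in 1 arm and below both in another. Only the named genes were searched for this, and its share over all genes tested was not counted. With 2 libraries against 2, such separations also arise without a strain difference. Maml2, a coactivator of Notch signalling, stood at 52.2 and 37.1 CPM in KK/HlJ sham against 21.0 and 17.4 CPM in C57BL/6 sham (log2 fold change 1.22), and at 6.98 and 13.6 CPM against 34.3 and 15.1 CPM at day 21 (−1.27). Gimap6, a GTPase of lymphocytes, stood at 13.3 and 11.8 CPM in KK/HlJ sham against 41.6 and 28.1 CPM in C57BL/6 sham (−1.47), and at 22.5 and 14.6 CPM against 7.45 and 13.9 CPM at day 21 (0.79). The interaction of strain with arm was tested for both and passed for neither (edgeR adjusted p = 1).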

How the results depend on the processing

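Of 1156 values of the 51 named genes under 23 alternatives to the additive fit, 1073 kept their side of the threshold, 83 were no longer called and none that was called changed sign. Apart from the summing of copies, all 43 called genes kept their sign in each alternative that tested them, 32 stayed called in all 12 fits that left out 1 library, and 25 also in the 10 other settings. With counts summed with the closest gene there were 30 calls, of which 25 were among the 43. The count of 43 became 106 without the filter, 121 with DESeq2, 75 with voom quality weights, 122 without the 3 KK/HlJ replicate 1 libraries and 93 without the 4 least correlated libraries. Leaving out 1 library gave 35 to 84, of which 84 without C57BL/6 sham replicate 2 and 81 without KK/HlJ sham replicate 1 moved it by over 1.5 times. In sham, 10 became 41 without the filter and 62 with DESeq2, and 15 to 187 with 1 library left out (187 without KK/HlJ sham replicate 2). At day 14, 8 became 27 without the filter, 3 at a mean of at least 5 CPM and 37 with DESeq2, and 10 to 766 with 1 library left out (766 without KK/HlJ ISO day 14 replicate 2). At day 21, 7 became 40, 4 and 49 under the same settings, and 5 to 520 (520 without KK/HlJ ISO day 21 replicate 2). The interaction's 0 became 17 without the filter, 5 with DESeq2 and 0 to 623 (623 without KK/HlJ ISO day 14 replicate 2). Where 1 library is left in a group, it is assumed to vary like the other groups. The cause was not tested. With offsets the split was 37 higher and 14 lower, and the median over all genes 0.08 rather than −0.06. Depth limits small changes: counts of 3 or fewer per library are not told from 0.

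With the replicate number as a block 39 genes were called, 36 of them among the 43, and 10, 7, 8 and 0 in sham, day 14, day 21 and the interaction. The numbers showed little sign of pairing the samples: 2 of 15 pairs of same-numbered libraries deviated together at r over 0.1 (−0.0994 to 0.168). That correlation does not measure library quality. In KK/HlJ the voom quality weights were 0.349 to 0.49 for replicate 1 and 1.19 to 1.55 for replicate 2, where a lower weight stands for a wider spread.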
